A study of Mus musculus with 9 samples.

Results

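The transcripts described here come from 42 genes of DNA replication and mitosis, picked by name out of the 20512 gene symbols in the deposited expression table. All 42 were present. Each had a mean log2 value of at least 3, the floor for testing, so all 42 were among the 14490 genes tested. RNA from intact mouse tongue tissue had been sequenced in 9 libraries, 5 from control mice and 4 from Bmi1 transgene mice, on a mixed C57/Bl6 and FVB/NJ background. Control mice carried K14-rtTA, in which the keratin 14 promoter of basal epithelial cells drives a doxycycline-dependent activator, and no second transgene. Transgene mice carried K14-rtTA together with TREFLBmi-1, a doxycycline-inducible Bmi1. Both groups were aged about 6 weeks and received 2 mg/mL doxycycline in the drinking water for 1 week, so the controls share the activator and the drug. Induction is thus confined by design to cells with keratin 14 promoter activity, whereas the RNA came from intact tissue with its muscle, stroma and vessels. Whether every library stands for a separate mouse is not stated in the labels, and p-values therefore cover only the variation among these libraries, which may be technical.

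In mouse tongue, dividing cells are found mainly in the basal layer of the epithelium. A cell entering the cycle first releases E2F factors from the retinoblastoma proteins, which raises cyclin E and the genes that license and fire replication origins. After S phase, cyclin A and cyclin B with their kinase Cdk1 carry the cell into mitosis, and the anaphase-promoting complex ends it. Bmi1 belongs to a Polycomb complex known for repressing the Cdkn2a cell cycle inhibitor locus, so the comparison bears on whether its induction alters transcripts of cycling cells.

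The deposited values are log2 normalized expression per library, in which a difference of 1 is a doubling, with no read counts and thus an unknown depth. Values of 2 genes are not compared with each other, since they are not scaled to transcript length. In 9 libraries and 2 groups there are 7 independent ways of varying around the group means, of which the deposited values used 5. That is the form left by removing the differences between 3 sets of libraries, here called strata. Stratum 1 is control replicate 1 and transgene replicate 1, stratum 2 is control replicates 2 and 3 with transgene replicates 2 to 4, and stratum 3 is control replicates 4 and 5. Every difference below is transgene minus control from limma with terms for the strata, which leaves 5 residual degrees of freedom, and stratum 1 carries 29.4% and stratum 2 carries 70.6% of its weight. Adjusted p-values are Benjamini-Hochberg values over all 14490 genes. A fit with the group alone counts 7 residual degrees of freedom and gives p-values that are too small, so its calls are given as such. In the deposited values, control replicate 1 and transgene replicate 1 lie at opposite distances from their group means, as do control replicates 4 and 5. Such a removal narrows the spread within groups. SDs and groups that do not overlap therefore count for less here than in uncorrected values.

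Bmi1, the induced gene, stood at 10.74, 10.21, 10.24, 10.45 and 10.34 in control replicates 1 to 5 and at 12.49, 12.05, 14.87 and 11.94 in transgene replicates 1 to 4. All transgene libraries lay above all controls, and transgene replicate 3 was far above the rest of its group. The difference was 2.44 (SE 0.60, limma adjusted p 0.0672), and without transgene replicate 3 the Bmi1 difference was 1.77.

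Most replication and mitosis genes were slightly lower in the transgene tongues, but none passed the test. The difference was below 0 for 40 of the 42 members, a share of 95.2%, beside 49% of all tested genes. In stratum 2 alone it was below 0 for 32 of the 42. The members varied together between libraries, as described below, so they are not 42 separate observations. The median over the members was -0.12 and the median over all tested genes was 0.00. No member passed at an adjusted p under 0.05, where 1.15% of tested genes were called lower and 0.511% higher, and the lowest adjusted p among the members was 0.0744, for Cdk1. At an unadjusted p under 0.05, 10 members were lower (23.8%) and 0 were higher, against 11.8% of tested genes lower and 11.2% higher. Those 10 were Gins2, Pcna, Tyms, Tk1, Ccnb1, Cdk1, Mad2l1, Ube2c, Aurkb and Birc5. The group-only fit called the same 10 lower at an adjusted p under 0.05, a call that 12.7% of all tested genes received. Every transgene library lay below every control for 9 members (21.4%), against 11.6% of tested genes. Leaving out 1 library gave counts at an unadjusted p under 0.05 from 7 to 17. The highest, 17 (40.5%, against 8.7% of tested genes), came without control replicate 3, a library with low mitotic transcripts. The lowest, 7 (16.7%, against 8.07%), came without control replicate 2. In the group-only fit that count was 22 (52.4%), against 19.8%.

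The sizes were small on the scale of the deposited values. The 42 differences ran from -0.31 for Ube2c to 0.08 for Cenpf, that is from -19.5% to 5.74% in level on that scale. Cdk1 was at -0.26 here and is at -0.35 in the authors' deposited table, so percentages given here and below may be too small. The lowest bound of any 95% interval was -0.52, also for Ube2c, which is -30.1% in level, and the highest was 0.32 for Cenpf. In RNA of intact tongue, fewer dividing cells and less of a transcript in each cannot be told apart.

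**Figure D1:**
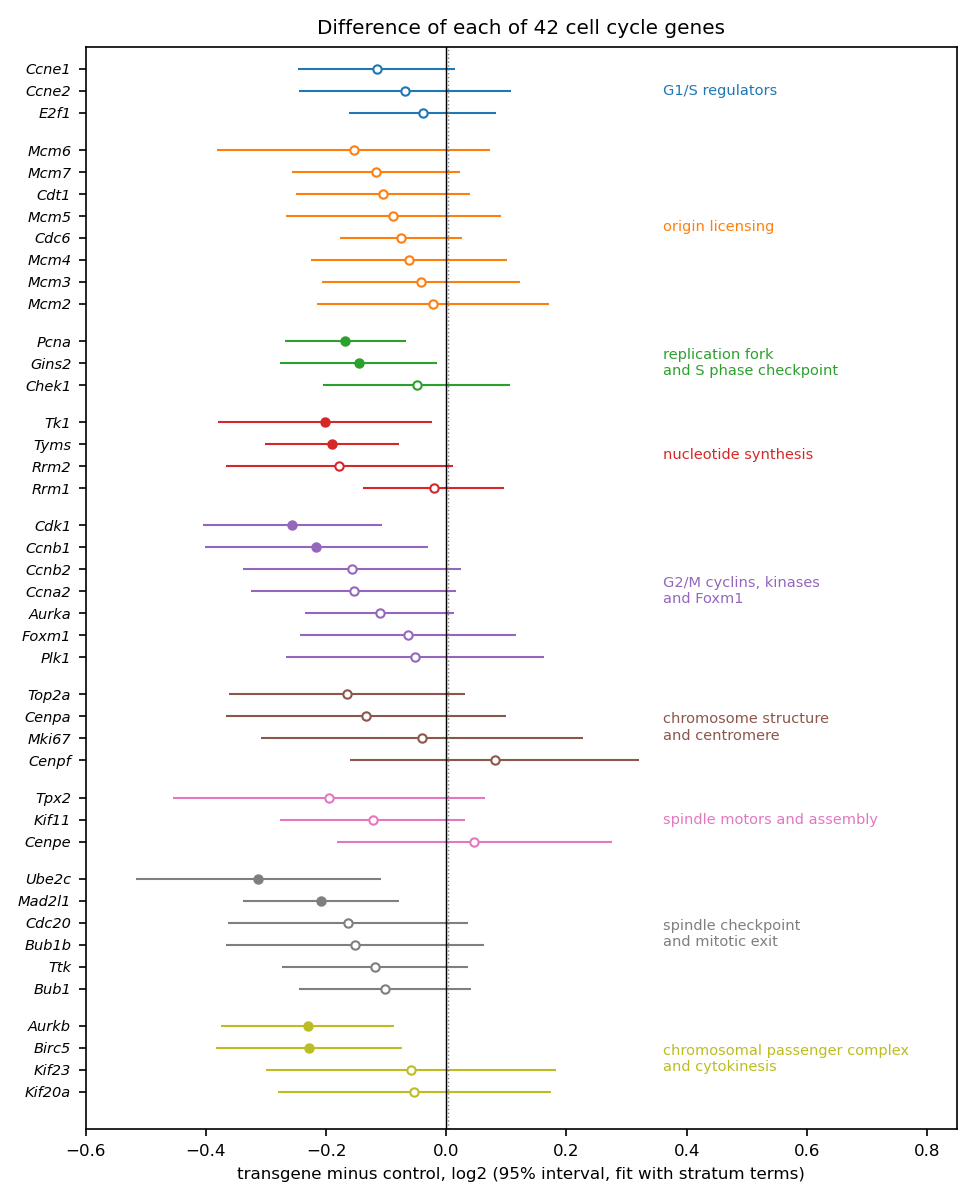
Difference of each of the 42 genes (x axis, transgene minus control, log2) with its 95% interval from limma with stratum terms, grouped by role. Filled points have an unadjusted p under 0.05, the solid line is 0 and the dotted line is the median over all tested genes. All 10 filled points lie left of 0, and the points for Cenpf and Cenpe lie right of it.

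None of the 3 G1/S regulators among the members passed the test. E2f1, the transcription factor that switches on S phase genes, stood at 7.21, 7.30, 7.30, 7.28 and 7.26 in control replicates 1 to 5 and at 7.29, 7.23, 7.25 and 7.15 in transgene replicates 1 to 4. The groups overlapped, and the difference was -0.04 (SE 0.05, 95% interval -0.16 to 0.08). Its targets Ccne1 and Ccne2, the E-type cyclins that activate Cdk2, differed by -0.12 (adjusted p 0.267) and -0.07 (adjusted p 0.633). All 3 genes were higher in the transgene library than in the control of stratum 1 and lower in stratum 2, with medians of 0.08 and -0.18.

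Origin licensing genes did not pass either. Cdc6 and Cdt1 load the Mcm2-7 helicase onto origins, and the 8 licensing genes had a median difference of -0.08, with values from -0.15 for Mcm6 to -0.02 for Mcm2. Mcm2, a helicase subunit often stained as a proliferation marker, stood at 8.87, 8.72, 8.91, 8.80 and 8.87 in the controls and at 8.78, 8.90, 8.96 and 8.62 in the transgene libraries. Transgene replicates 2 and 3 were at the upper end of the control range or above it, and transgene replicate 4 lay below all controls. The interval of its difference ran from -0.22 to 0.17. Mcm6 ranged from 8.82 in transgene replicate 4 to 9.31 in transgene replicate 2, a gap wider than its group difference of -0.15 (SE 0.10).

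At the replication fork, Pcna and Gins2 had no transgene value as high as the lowest control. Pcna, the sliding clamp that holds DNA polymerases on the template, stood at 10.59, 10.53, 10.54, 10.52 and 10.59 in the controls and at 10.35, 10.38, 10.43 and 10.38 in the transgene libraries. In these values the groups did not overlap, and the difference was -0.17 (SE 0.05, 95% interval -0.27 to -0.07, adjusted p 0.0806). Gins2, a subunit of the helicase complex that travels with the fork, was at 6.66, 6.70, 6.73, 6.64 and 6.74 in the controls and at 6.58, 6.55, 6.63 and 6.44 in the transgene libraries. Its highest transgene value lay just under its lowest control value, and the difference was -0.15 (SE 0.06, adjusted p 0.178). Chek1, the kinase that halts the cycle when forks stall and a member shared with the DNA damage response, differed by -0.05 (SE 0.07).

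Nucleotide supply genes had the lowest median of the 4 S phase roles, at -0.18. Tyms, thymidylate synthase, stood at 7.58, 7.54, 7.54, 7.54 and 7.56 in the controls and at 7.34, 7.40, 7.39 and 7.31 in the transgene libraries. The control SD of 0.02 was the smallest among the members, no transgene library reached a control, and the difference was -0.19 (SE 0.05, 95% interval -0.30 to -0.08, adjusted p 0.0751). Tk1, the thymidine salvage kinase, was at 8.03, 8.13, 8.20, 8.23 and 8.01 in the controls and at 8.01, 7.81, 7.99 and 7.86 in the transgene libraries. Its groups met at control replicate 5 and transgene replicate 1, and the difference was -0.20 (SE 0.08, adjusted p 0.173), made up of -0.02 in stratum 1 and -0.28 in stratum 2. The ribonucleotide reductase subunits diverged, with -0.18 (SE 0.08) for the small subunit Rrm2 and -0.02 (SE 0.05) for the large subunit Rrm1, a gap that was not tested.

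Among the 7 G2/M drivers, Cdk1 had the lowest difference. Cdk1, the kinase that starts mitosis, was at 8.15, 8.35, 8.12, 8.23 and 8.19 in the controls and at 8.01, 7.91, 7.97 and 7.93 in the transgene libraries. The groups did not overlap, and the difference was -0.26 (SE 0.07, 95% interval -0.40 to -0.11, adjusted p 0.0744), which is -16.3% in level. Leaving out control replicate 1 or transgene replicate 1, which leaves stratum 2 alone to compare the groups, gave -0.30 and an adjusted p of 0.0363 in limma either way, and these were the 2 settings with stratum terms in which a member passed. That is 1 of 42 members (2.38%), while 6.57% of tested genes were called lower without control replicate 1 and 6.54% without transgene replicate 1. Over all 19 alternatives its adjusted p ran from 0.00545, with the group as the only term, to 0.247, without control replicate 2. Ccnb1, the B-type cyclin that activates Cdk1, stood at 8.77, 8.78, 8.59, 8.68 and 8.74 in the controls and at 8.44, 8.41, 8.43 and 8.70 in the transgene libraries. Transgene replicates 1 to 3 lay close together below every control and replicate 4 lay within the control range, and the difference was -0.22 (SE 0.08, adjusted p 0.164). The other cyclins Ccnb2 and Ccna2 differed by -0.16 and -0.15, the spindle pole kinase Aurka by -0.11, the mitotic transcription factor Foxm1 by -0.06 and the mitotic kinase Plk1 by -0.05, with adjusted p-values from 0.259 to 0.778. Of these 5 genes, the groups were apart for Aurka.

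Mki67 and Top2a, common markers of proliferating cells, did not show a clear difference. Mki67, which coats mitotic chromosomes and encodes the Ki-67 antigen, stood at 10.66, 10.47, 10.24, 10.40 and 10.51 in the controls and at 10.21, 10.36, 10.41 and 10.68 in the transgene libraries. The groups covered the same range, and the difference was -0.04 (SE 0.12, 95% interval -0.31 to 0.23), so levels from -19.3% to 17.0% lie within the interval. The strata pointed in opposite directions for Mki67, at -0.45 in stratum 1 and 0.13 in stratum 2. Top2a, the topoisomerase that untangles sister chromatids, was at 10.46, 10.35, 10.17, 10.35 and 10.30 in the controls and at 10.03, 10.07, 10.33 and 10.21 in the transgene libraries. Transgene replicates 1 and 2 lay below every control and the others among them, and the difference was -0.17 (SE 0.09, adjusted p 0.289). The centromeric histone gene Cenpa differed by -0.13 (SE 0.10) and the kinetochore protein gene Cenpf by 0.08 (SE 0.11).

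None of the 3 spindle assembly genes passed the test. The motor gene Kif11, which pushes spindle poles apart, differed by -0.12 (SE 0.07), the microtubule nucleator gene Tpx2 by -0.19 (SE 0.12) and the kinetochore motor gene Cenpe by 0.05 (SE 0.10). Tpx2 had the largest control SD of the 42 genes, 0.19.

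All 6 spindle checkpoint and mitotic exit genes had a difference below 0 in each of strata 1 and 2, and none passed. Ube2c, the ubiquitin-conjugating enzyme of the anaphase-promoting complex, stood at 8.11, 8.32, 7.94, 8.16 and 8.09 in the controls and at 7.82, 7.68, 7.82 and 7.92 in the transgene libraries. No transgene value reached the lowest control, and the difference was -0.31 (SE 0.09, 95% interval -0.52 to -0.11, adjusted p 0.0940). Mad2l1, which holds back the anaphase-promoting complex until chromosomes are attached, was at 7.85, 7.92, 7.86, 7.82 and 7.94 in the controls and at 7.70, 7.60, 7.72 and 7.67 in the transgene libraries. Again the groups did not overlap, with a difference of -0.21 (SE 0.06, adjusted p 0.0862). Cdc20, an activator of the anaphase-promoting complex, was at 8.90, 8.81, 8.64, 8.75 and 8.83 in the controls and at 8.51, 8.56, 8.59 and 8.83 in the transgene libraries. Transgene replicate 4 was level with control replicate 5 while its group's other libraries lay below all controls, and the difference was -0.16 (SE 0.09, adjusted p 0.302). The checkpoint kinase genes Bub1, Bub1b and Ttk differed by -0.10, -0.15 and -0.12, with adjusted p-values from 0.330 to 0.367.

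The chromosomal passenger complex corrects faulty attachments and sets the plane of cytokinesis. Aurkb, its kinase, stood at 7.57, 7.57, 7.45, 7.60 and 7.46 in the controls and at 7.26, 7.23, 7.38 and 7.33 in the transgene libraries. Birc5, its subunit survivin, was at 7.60, 7.77, 7.52, 7.66 and 7.61 in the controls and at 7.44, 7.31, 7.43 and 7.44 in the transgene libraries. Neither gene overlapped between groups, and the differences were almost equal, at -0.23 for both (SE 0.06 and 0.07, adjusted p 0.0864 and 0.101). The cytokinesis motor genes Kif20a and Kif23, which act beside this complex on the central spindle, differed by -0.05 and -0.06 and overlapped, with adjusted p-values of 0.785 and 0.775.

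An exact permutation test of the stratum-adjusted difference within strata, two-sided, was run for the 15 members given library by library. With 20 possible splits this exact test cannot go below p = 0.05, and after adjustment over 15 tests none could fall below that value. It reached that value for Pcna, Tyms, Tk1, Cdk1, Mad2l1, Ube2c, Aurkb and Birc5. These genes were all called in the group-only fit, a call that put members among the 15. The permutation is thus no separate support, and the share of all tested genes at that value was not computed.

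**Figure D2:**
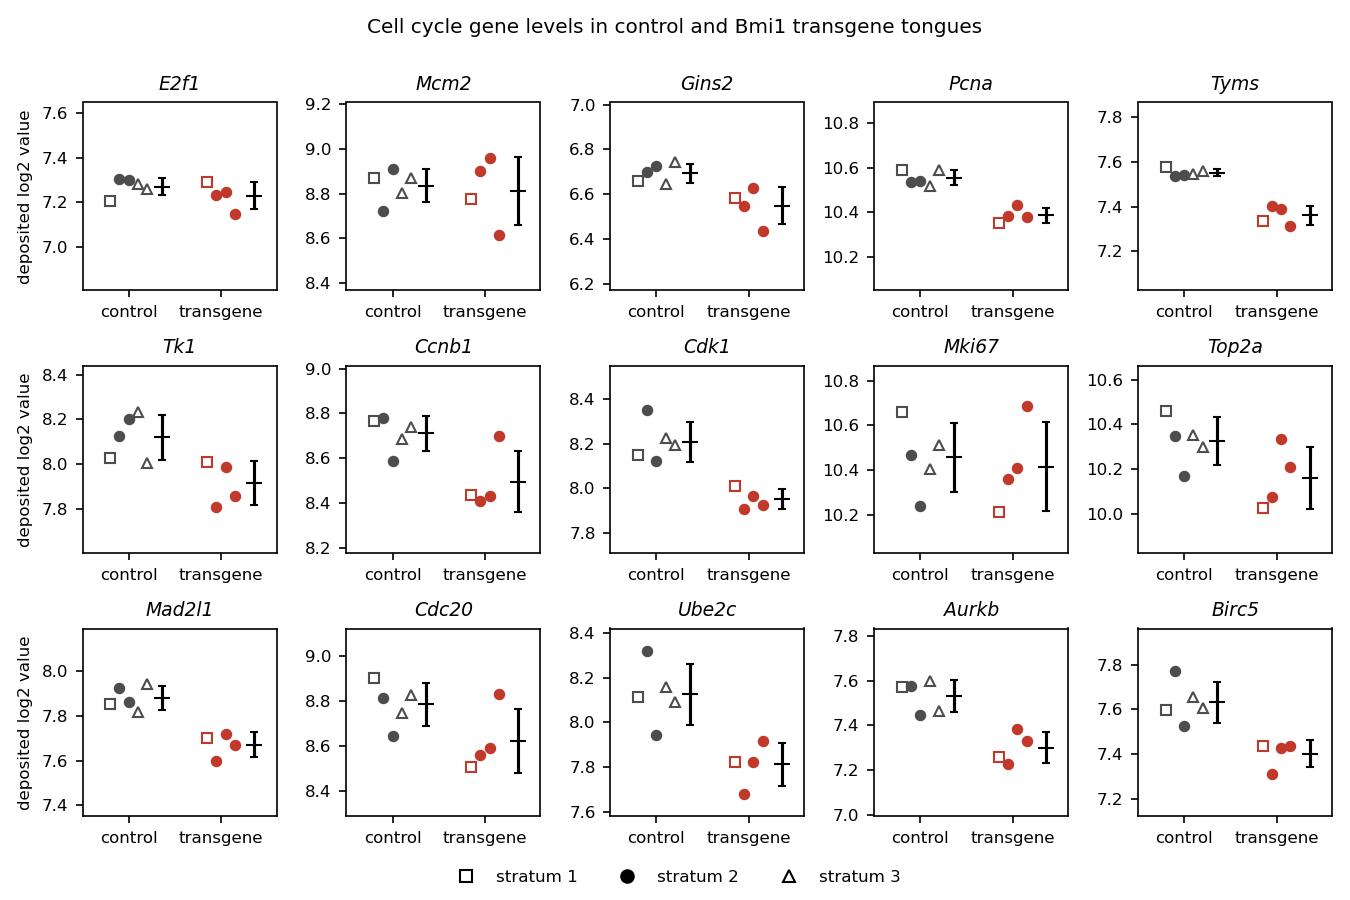
Deposited log2 values of 15 of the genes in each library (points, shape gives the stratum), with the group mean and SD beside them (n = 5 control, n = 4 transgene). Each panel spans the same height of the log2 scale. The groups are apart for Gins2, Pcna, Tyms, Cdk1, Mad2l1, Ube2c, Aurkb and Birc5, and they cover the same range for Mki67.

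The members split by phase in how single libraries of 1 group differed. The 18 genes of the G1/S, licensing, fork and nucleotide roles are called S phase genes here and the other 24 G2/M genes. The pairs below were singled out after the values were seen, lie within 1 stratum and 1 group, stratum 2 unless said, and so hold no difference that an additive stratum correction would alter. Control replicate 2 was above control replicate 3 for all 24 G2/M genes, with a median of 0.21, but for 3 of 18 S phase genes, with a median of -0.07. Among all tested genes it was above for 49.2%. In the other group, transgene replicate 4 was above transgene replicate 2 for all 24 G2/M genes (median 0.20) and for 4 of 18 S phase genes (median -0.11), against 47.9% of tested genes. It was below transgene replicate 3 for all 18 S phase genes, while 16 of 24 G2/M genes and 48.6% of tested genes were above it there. In these pairs, the library higher in mitotic transcripts was the lower one for most replication transcripts. The 2 further pairs showed less of this, since in stratum 3 control replicate 5 was above control replicate 4 for 14 of 24 G2/M and 9 of 18 S phase genes, and transgene replicate 3 was above replicate 2 for 21 of 24 and 10 of 18. Cell cycle genes outside the 42 gave these counts: 61 of 78 other mitosis genes and 18 of 47 other replication genes were higher in control replicate 2 than in control replicate 3. For transgene replicate 4 against replicate 2 the counts were 56 of 78 and 9 of 47, and for transgene replicate 4 against replicate 3 they were 43 of 78 and 13 of 47. The 19 other G1/S genes, whose role belongs to the S phase genes here, were higher for 3 in the control pair but for 10 and 11 in these transgene pairs, so they did not share the low count there.

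Against the mean of the controls, the S phase genes averaged -0.10, -0.07, -0.04 and -0.19 in transgene replicates 1 to 4, and the G2/M genes averaged -0.20, -0.21, -0.11 and -0.01. Transgene replicate 4 was thus the lowest for S phase genes and level with the controls for G2/M genes. The controls ranged from -0.04 to 0.04 for S phase genes and from -0.13 to 0.07 for G2/M genes, with replicate 3 at the low end of the latter. The median difference was -0.10 over the 18 S phase genes, all of them below 0, and -0.14 over the 24 G2/M genes, with 22 below 0. Median control SDs were 0.06 and 0.09.

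**Figure D3:**
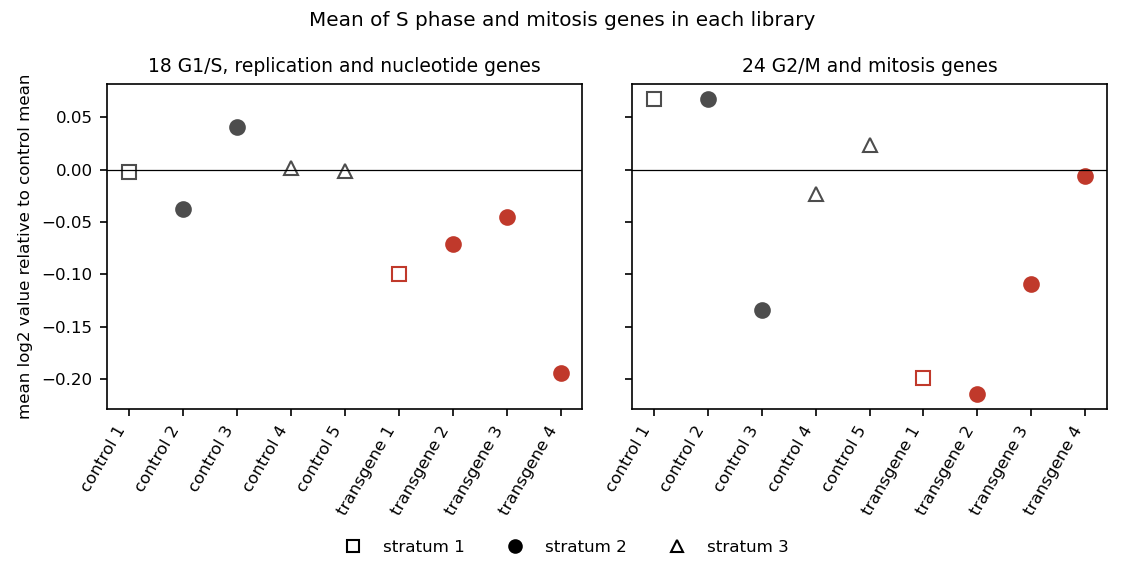
Mean deposited log2 value relative to the control mean (y axis) of 18 S phase genes and of 24 G2/M genes in each of the 9 libraries (x axis); shapes give the stratum, grey is control and red is transgene. Control replicate 3 and transgene replicate 4 change their place among their group between the panels.

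Promoters of these genes are shown because their sequences also differed by phase. RefSeq promoters (GRCm38.p6, from 250 bases before to 50 after the gene start) were at hand for 34 of the 42 genes. The letters searched on both strands were TTTGAA, the cell cycle homology region bound by the DREAM and MuvB complexes, CCAAT, the box bound by NF-Y, and TTTCGCGC or TTTGGCGC, forms of the E2F site. TTTGAA was found in 14 of 19 G2/M promoters and in 1 of 15 S phase promoters, that of Mcm2, beside 20.2% of all 27025 genes with a promoter. An E2F form was found in 5 of 15 S phase promoters (Cdt1, Mcm3, Mcm5, Mcm6 and Mcm7) and in 1 of 19 G2/M promoters, that of Cdk1, beside 0.929% of all genes. CCAAT was in 17 of 19 and 8 of 15, beside 41.1%. These are matches of letters and not measured binding. By group difference, TTTGAA was in 2 of 8 promoters of members lower at an unadjusted p under 0.05 and in 13 of 26 others. Below, capitals mark every match of any of these letters, and matches may overlap. Cdk1 and Ube2c are G2/M genes with low transgene values, Mki67 is a G2/M gene without a clear difference, Mcm6 is a licensing gene with 3 E2F matches, and Pcna is an S phase gene with neither TTTGAA nor an E2F form.
Cdk1 (chr10:69352863-69353162, minus strand): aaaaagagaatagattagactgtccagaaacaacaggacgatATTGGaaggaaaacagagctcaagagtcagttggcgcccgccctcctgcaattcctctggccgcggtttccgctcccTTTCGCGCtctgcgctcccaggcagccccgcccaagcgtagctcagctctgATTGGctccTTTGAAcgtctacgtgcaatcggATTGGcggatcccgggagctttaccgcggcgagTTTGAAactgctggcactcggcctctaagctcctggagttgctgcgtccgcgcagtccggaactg
Ube2c (chr2:164769679-164769978, plus strand): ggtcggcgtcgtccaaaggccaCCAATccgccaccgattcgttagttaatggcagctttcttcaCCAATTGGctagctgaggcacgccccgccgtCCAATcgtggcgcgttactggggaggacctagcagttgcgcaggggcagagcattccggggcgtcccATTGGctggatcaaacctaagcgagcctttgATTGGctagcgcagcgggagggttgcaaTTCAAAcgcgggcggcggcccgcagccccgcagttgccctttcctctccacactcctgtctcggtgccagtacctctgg
Mki67 (chr7:135716330-135716629, minus strand): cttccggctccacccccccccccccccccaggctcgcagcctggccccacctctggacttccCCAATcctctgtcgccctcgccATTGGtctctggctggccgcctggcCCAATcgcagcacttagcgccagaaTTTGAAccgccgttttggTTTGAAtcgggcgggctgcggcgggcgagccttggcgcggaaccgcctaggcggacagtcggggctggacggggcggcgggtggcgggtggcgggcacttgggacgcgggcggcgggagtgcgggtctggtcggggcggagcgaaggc
Mcm6 (chr1:128359656-128359955, minus strand): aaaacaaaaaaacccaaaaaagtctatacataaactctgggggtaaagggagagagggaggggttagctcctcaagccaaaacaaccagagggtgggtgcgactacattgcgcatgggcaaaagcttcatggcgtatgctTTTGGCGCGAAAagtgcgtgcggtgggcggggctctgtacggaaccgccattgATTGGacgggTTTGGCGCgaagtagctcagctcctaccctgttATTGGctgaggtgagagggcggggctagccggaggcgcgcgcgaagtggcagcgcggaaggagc
Pcna (chr2:132253131-132253430, minus strand): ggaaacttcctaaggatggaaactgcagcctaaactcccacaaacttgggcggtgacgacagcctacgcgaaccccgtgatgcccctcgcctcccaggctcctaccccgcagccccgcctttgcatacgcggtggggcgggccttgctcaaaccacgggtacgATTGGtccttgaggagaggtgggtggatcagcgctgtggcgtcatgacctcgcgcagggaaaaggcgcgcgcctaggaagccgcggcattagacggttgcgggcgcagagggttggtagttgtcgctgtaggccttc
Mki67 and Cdk1 hold the same number of TTTGAA and of CCAAT matches, 2 and 3, and their differences were -0.04 and -0.26.

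Differences in these libraries moved with transcript length, and the members are set beside that here. Over all tested genes the median difference rose from -0.10 in the shortest of 5 equal length classes, up to 1739 bases, to 0.11 in the longest, from 5012 bases. The members lay below the genes of their length in every class. Their medians were -0.18, -0.14, -0.09, -0.12 and 0.00 from the shortest to the longest, with 6, 8, 13, 11 and 4 members, against -0.10, -0.03, -0.00, 0.04 and 0.11. The 4 longest were Top2a, Cenpe, Mki67 and Cenpf, and they include both members above 0. With the length trend taken out of each library, all 42 differences were below 0 and their median was -0.11. Limma then called 0 members at an adjusted p under 0.05, where 2 of 14438 tested genes were called in either direction. At an unadjusted p under 0.05, 10 members were lower, a share of 23.8% against 8.05% of tested genes. Cdc6, Top2a and Kif11 entered these 10, with -0.12, -0.23 and -0.18, and Pcna (-0.09), Tk1 (-0.12) and Ube2c (-0.19) left them. Cenpf and Cenpe turned to -0.09 and -0.08, and Mki67 was at -0.20. What the length trend stands for was not tested.

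**Figure D4:**
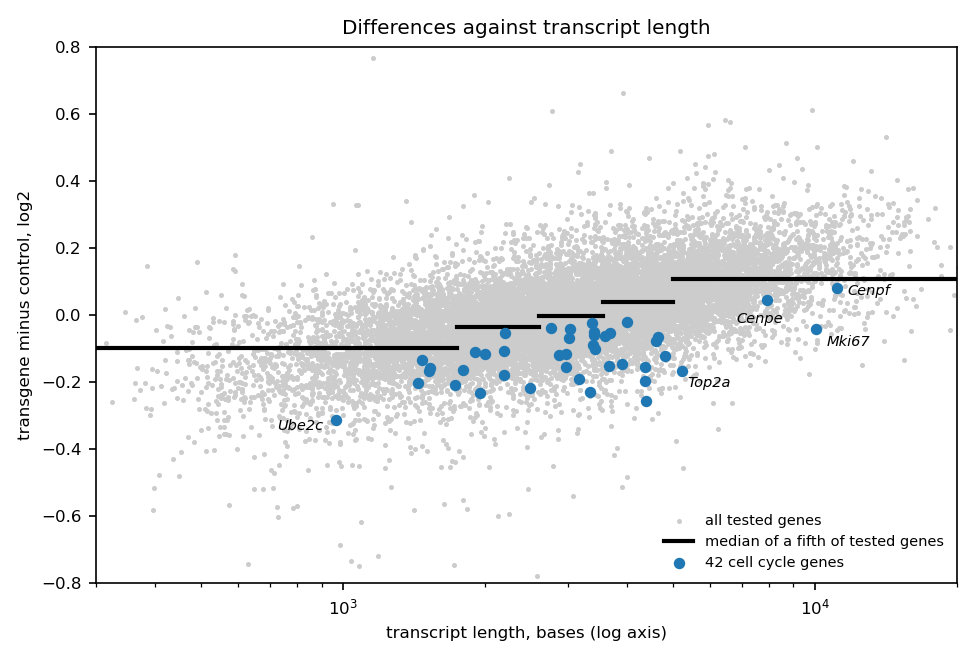
Difference (y axis, transgene minus control, log2) against transcript length (x axis, log scale) for all tested genes in grey and the 42 members in blue, with the median of each of the 5 length classes as a bar. Genes beyond 0.8 in either direction, or shorter or longer than the axis, are outside the frame. The bars rise from -0.10 to 0.11, and most members lie below the bar at their length.

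Of 144 other cell cycle genes, all tested, 3 (2.08%) fell and 0 rose at an adjusted p under 0.05, against 1.15% lower and 0.511% higher among all tested genes. With an unadjusted p under 0.05, 29 (20.1%) were lower and 2 (1.39%) higher, against 11.8% and 11.2%. Their median difference was -0.06. In stratum 2 alone 11.1% of the 144 were lower at an unadjusted p under 0.05, against 13.2% of tested genes. After removal of the length trend it was 11.8%, against 8.05%. Hmgb2, a chromatin protein gene of cycling cells, stood at 10.55, 10.70, 10.47, 10.57 and 10.58 in the controls and at 10.24, 10.17, 10.21 and 10.24 in the transgene libraries, and fell by 0.36 (SE 0.06, adjusted p 0.0407). Stmn1, which encodes the microtubule-destabilizing protein stathmin, was at 10.85, 10.93, 10.69, 10.79 and 10.86 and at 10.48, 10.55, 10.50 and 10.52, and fell by 0.31 (SE 0.06, adjusted p 0.0430). The primase subunit gene Prim1 fell by 0.29 (SE 0.06, adjusted p 0.0499). For these 3 genes no transgene library reached a control. None of the 3 was called with the length trend taken out, where Hmgb2 was at -0.34 (adjusted p 0.0850), Stmn1 at -0.20 and Prim1 at -0.23. That fit called 2 of 14438 genes in either direction. The 3 were also not called without any one of control replicates 2 to 5 or of transgene replicates 2 and 3. Those fits called from 0 to 31 of the 14490 tested genes, against 240 in the main fit. Without transgene replicate 4, where 228 genes were called, Hmgb2 alone was. Among the other genes lower at an unadjusted p under 0.05, the largest differences were -0.27 for the mitotic kinase gene Pbk, -0.26 for the spindle protein gene Nusap1 and -0.24 for the origin recognition gene Orc6, with adjusted p-values from 0.130 to 0.183. The highest difference of the 144, named after its value was seen, was 0.29 for the securin gene Pttg1 (SE 0.15, adjusted p 0.274), whose groups overlapped.

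Markers of the layer that holds the dividing cells were not lower as a list. The 12 basal keratinocyte markers had a median difference of 0.01, with 0 called in either direction, and their summed linear value ran from 153475 to 179527 in controls and from 148074 to 169855 in transgene libraries. Krt5 differed by -0.10 (SE 0.09), Krt14 by -0.16 (SE 0.08) and Trp63 by -0.02 (SE 0.08). Of the 12, 6 were above 0 and 6 below. The farthest from 0, named after their values were seen, were the hemidesmosome gene Dst at 0.36 (adjusted p 0.0696) and the transcription factor gene Pitx1 at -0.25 (adjusted p 0.0732), and the groups were apart for both. With the length trend taken out, Dst, of 23251 bases, was at 0.11 and Pitx1 at -0.22. The median of the 12 was then -0.02, with 7 below 0. In the values as deposited, the basal median was -0.26 in stratum 1, where a single control faces a single transgene library, and 0.13 in stratum 2. The median over the 42 members was -0.21 and -0.09 in the same strata. All 24 G2/M genes were below 0 in stratum 1 and 17 of them in stratum 2. For S phase genes the counts were 14 and 15 of 18. Whether these differences between strata exceed the spread of libraries was not tested, nor was the part of these or the following markers in any member's difference. Of the other marker lists, hard keratins of the filiform papillae had a median of -1.08 (7 of 11 lower), suprabasal keratinocytes -0.04 (1 of 11 lower), skeletal muscle -0.04 (0 of 10 called), fibroblasts 0.17 (0 of 8), endothelium 0.19 (0 of 7) and leukocytes 0.06 (Csf1r higher among 8 tested). No listed marker was at 0, and the lymphocyte markers Cd3e and Cd79a lay under the floor, so the epithelial, muscle, stromal and vascular markers of tongue were all present. The summed linear value of the hard keratins ran from 29428 to 35775 in controls and from 14425 to 25521 in transgene libraries, without overlap. For fibroblast markers the ranges were 78236 to 102589 and 100505 to 124786, and for endothelial markers 10799 to 13536 and 13113 to 16077, and both overlapped.

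One of the 42 members is in the authors' deposited table of 981 genes with an adjusted p under 0.05, in which 3.81% of the tested genes stand as lower. Cdk1 has a log2 fold change of -0.35 (SE 0.11, adjusted p 0.0319) in the authors' deposited table. Among the other cell cycle genes, the authors' deposited table lists Hmgb2 at -0.44, Prim1 at -0.43, Stmn1 at -0.37 and Cdk4 at -0.25. Cdk4, the cyclin D kinase gene of G1, differed by -0.21 in the fit with stratum terms (SE 0.05, limma adjusted p 0.0710), and its groups did not overlap. For all of these genes the authors' values lie farther from 0 than the differences given here, which come from another fit.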

How the data were processed

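RNA-seq of tongue was used from 9 libraries. Per the labels' protocols, the libraries were stranded mRNA libraries. Per the submitters' processing notes, TopHat2, HTSeq and DESeq2 were used with mm9, without versions. The files deposited by the authors hold log2 normalized values and, for 981 genes, their own log2 fold change, linear fold ratio, mean normalized signal, test score and p-values. The 3064 genes at exactly 0 in every library and 1 row without a name were left out. Low genes vary little between libraries, as in a regularized log, so their differences may be understated, and those of other genes may be too.

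Strata were found from the values: of 3003 partitions of the libraries into 3 sets, 1 left no variation between set means beyond the group means. No source used here says what the strata stand for. All genes averaging a log2 value of 3 or more were fitted with limma 3.58.1 in R 4.3.3 (group and stratum terms, intensity trend, two-sided p, Benjamini-Hochberg adjustment, threshold 0.05). The script was tested on simulated data. Lengths are those of the longest GENCODE M21 transcript paired with a RefSeq mRNA, or of the longest transcript where none was paired. Symbols without a match were looked up by synonym, and a length was found for 14438 of 14490 genes. The length trend was a lowess curve with span 0.3 in each library. Replicates are numbered in accession order and pair no libraries.

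The 42 members and all lists were chosen with earlier results of these data known. Given library by library were 7 members chosen from several roles and every member called in either fit. No spindle assembly gene was among them. Of the other cell cycle genes, the 6 with the largest differences at an unadjusted p under 0.05 were named, and Cdk4 was named for its place in the authors' deposited table. The member genes named for their ranges, their length or their flags were chosen after their values were seen. Alternatives were the group as the only term, other filters, variance priors, scalings and a pseudocount of 1, the length trend, stratum 2 alone and leaving out each library.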

Additional observations from a re-analysis of the deposited data

Results flagged for a closer look

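In 6 of 86 groups examined (42 members and Bmi1, 2 groups each), 1 library stood apart from the others of its group by a Dixon ratio above the 95% critical value. Chance flags about 1 in 20 groups of independent values, which these are not. Control replicates 4 and 5 mirrored each other about the control mean (-0.0126 and 0.0126 over all members), and the members varied together. The number of flags to expect here is thus unknown. All 6 were in the transgene group, which cannot be weighed for the same reason. Transgene replicate 4 was the highest for the mitotic genes Ccnb1 (8.70, nearest value 8.44), Ccnb2 (7.87, nearest 7.62) and Kif23 (8.81, nearest 8.43), and the lowest for the S phase checkpoint gene Chek1 (6.02, nearest 6.20). Transgene replicate 3 was the highest for Rrm2 (8.59, nearest 8.29), and transgene replicate 2 was the lowest for Birc5 (7.31, nearest 7.43).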

How the results depend on the processing

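Over 19 alternatives, 749 of 798 member differences kept their direction and their side of the threshold, 37 reversed in 13 members and 12 passed the threshold. With the group as the only term, 10 members were lower at an adjusted p under 0.05 and 22 at an unadjusted one, against 0 and 10, while the share of all tested genes lower at an unadjusted p went from 11.8% to 19.8%, and of the other cell cycle genes 30 were lower and 2 higher, with 47 and 5 unadjusted, while Bmi1 stayed at 2.44 with an adjusted p of 0.00719. The 3 other cell cycle genes called lower became 1 without a filter, 1 with quantile normalization, 1 in stratum 2 alone and 0 with the length trend taken out. Their unadjusted counts, 29 lower and 2 higher, became 16 and 4 in stratum 2 alone and 17 and 1 with the length trend taken out. In stratum 2 alone the differences of Mcm2 (0.00764), Mcm4 (0.0178), Rrm1 (0.0362), Foxm1 (0.0327), Plk1 (0.0153), Mki67 (0.130), Kif20a (0.0382) and Kif23 (0.0117) turned above 0, and with the length trend taken out Cenpf (-0.0859) and Cenpe (-0.0778) turned below 0.

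Leaving out each library in turn gave 0 to 1 members lower at an adjusted p and 7 to 17 at an unadjusted one, and 0 to 6 other cell cycle genes lower, 0 to 2 higher, 17 to 36 lower unadjusted and 1 to 4 higher unadjusted. Over the same fits, 0 to 1841 of the 14490 tested genes were called in either direction at an adjusted p. The share of all tested genes lower at an unadjusted p ran from 8.07% to 15.3%, so these counts also moved with the fit as a whole. The median over the other genes ran from -0.0838 to -0.0405 and the Bmi1 difference from 1.77 to 2.74. Members that reversed ran from -0.0901 to 0.0425 for Mcm2, -0.0929 to 0.0130 for Mcm3, -0.141 to 0.0178 for Mcm4, -0.104 to 0.0289 for Chek1, -0.0633 to 0.0362 for Rrm1, -0.161 to 0.0327 for Foxm1, -0.105 to 0.0244 for Plk1, -0.17 to 0.13 for Mki67, -0.249 to 0.00510 for Cenpa, -0.00769 to 0.214 for Cenpf, -0.0708 to 0.148 for Cenpe, -0.155 to 0.0382 for Kif20a and -0.157 to 0.0117 for Kif23. The cause was not tested. No paired analysis was possible because the replicate numbers follow accession order and pair no libraries. Depth is unknown, so no interval for counting error can be given.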
